A study of Rattus norvegicus with 20 samples.

Results

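Epithelial cells of the rat thymus were compared with those of bladder, trachea and vagina to find the genes that set thymic cells apart from the other non-hair epithelia both before and after the cells had lived in skin. The comparison took every RNA-seq sample labelled thymus (4 samples) and every sample labelled bladder (dome), trachea or vagina (12 samples), which is 16 of the 20 samples of the series, and left out the 4 whisker samples. All cells came from Sprague-Dawley rats that carry the act-EGFP transgene and express enhanced green fluorescent protein constitutively. The tissues were taken at postnatal days PN137 for thymus, PN200 for trachea and vagina and PN201 for bladder. Cells of the 1st round were cultured on irradiated 3T3-J2 cells, a mouse fibroblast feeder layer, and were sorted on EGFP before any transplantation. Cells of the 2nd round had been transplanted into skin of newborn mice, were dissociated from the grafts on nude mice, cultured in the same way and sorted on EGFP. Each tissue had 2 samples in each round.

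Each sample had 20723083 to 29824855 reads on genes. Levels are given as CPM, a gene's reads scaled to the effective library size, and 3 reads, the smallest count taken as a measurable level, were 0.0988 to 0.144 CPM. Frozen cells were the source of the thymus cultures. The titles of the 1st-round thymus samples call them bulk cultures while their source field names a clone, and the recovered thymus samples carry the number of one recovered culture, so the 4 thymus samples are not independent sources of cells. Nothing in the labels says that the samples of a group came from separate animals or grafts, and the p-values may therefore measure a technical spread. In all 8 groups the gap between both samples exceeded counting noise, so none was counted as 1 library deposited a second time. The gap was widest before transplantation for thymus and for bladder, with a mean chi-square per gene of 43.1 and 34.7, against 2.49 to 8.73 in the other 6 groups. The samples sequenced were those with the best RNA quality. The summed level of the Y chromosome genes Ddx3 and Eif2s3y was 184 to 259 CPM in bladder and at most 0.156 CPM in every sample of thymus, trachea and vagina. Donor age and tissue cannot be told apart in a comparison of thymus with any of the other tissues. The same holds for the frozen source of the thymus cultures. In a comparison with bladder, sex is a further such factor. Fewer cells of a type cannot be told apart from less RNA per cell.

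Thymic epithelium derives from endoderm of the third pharyngeal pouch, where Hoxa3 and Eya1 belong to a set of transcription factors needed to build the organ, and it supports developing T cells through Notch ligands, cytokines, chemokines and peptide presentation. Its cultured clonogenic cells grow on feeder layers like epidermal keratinocytes and can contribute to skin after transplantation. The files name genes by Ensembl identifier, and 2248 of the 13192 genes tested could be paired with a symbol. Most usable symbols (85.8%) begin with A to F, so the named genes are a part of those that differed. Foxn1, Pax1, Pax9, Psmb11, Dll4 and Ccl25, which define thymic epithelium, were among the unpaired genes and are not analysed here. Of the markers set down for thymic epithelium, the one paired was Krt8, a keratin that other epithelia also have, at 414, 338, 59.4 and 59.8 CPM in the 4 thymus samples, within the range of the other samples. The label of the thymus cells was therefore not checked by their defining markers.

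Of 13192 genes tested in the 16 samples with round as a covariate, 567 (4.3%) were higher and 260 (1.97%) lower in thymus cells (adjusted p below 0.05, at least a 2-fold difference). Within the 1st round, 1103 genes (8.36%) were higher and 1319 (10%) lower than the mean of the 3 other tissues, and within the 2nd round 1085 (8.22%) were higher and 804 (6.09%) lower. The genes higher in both rounds numbered 393 (2.98%), which were 35.6% of those higher in the 1st round and 36.2% of those higher in the 2nd. The genes lower in both rounds numbered 384 (2.91%), which were 29.1% of those lower in the 1st round and 47.8% of those lower in the 2nd. In the opposite sense, 50 genes went from higher to lower and 168 from lower to higher. The 2 rounds share no sample, but the paper describes the recovered cells as the same cells after transplantation. Both rounds were also tested in 1 fit with a shared residual spread, so they are not independent checks. With each round fitted alone, 338 genes were higher and 348 lower in both rounds.

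A stricter set was called in the same direction against bladder, trachea and vagina separately in both rounds, which makes 6 contrasts. It held 80 genes higher (0.606%) and 79 lower (0.599%) in thymus cells. Against the mean of the 3 other tissues the 80 genes were higher by a median of 3.27 on the log2 scale in the 1st round (range 1.35 to 10.14) and 3.70 in the 2nd (range 1.27 to 10.89). The 79 lower genes had medians of -3.41 and -3.00, with the furthest at -8.69 and -8.07. The sizes follow in part from the rule that chose them. The same rule applied to each of the other tissues gave 239 higher and 41 lower genes for bladder, 43 and 52 for trachea, and 37 and 77 for vagina. In 70 of the 80 higher genes every thymus sample lay above every other sample, and in 72 of the 79 lower genes every thymus sample lay below. Over all genes tested, 497 (3.77%) had the 4 thymus samples above and 424 (3.21%) below the 12 others. All 80 higher genes and 58 of the 79 lower genes were also called with round as a covariate, a fit in which the spread between the 3 other tissues counts as error. The direction and size of the differences in each round are shown in the plot of 1st-round against 2nd-round log2 fold changes.

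**Figure D1:**
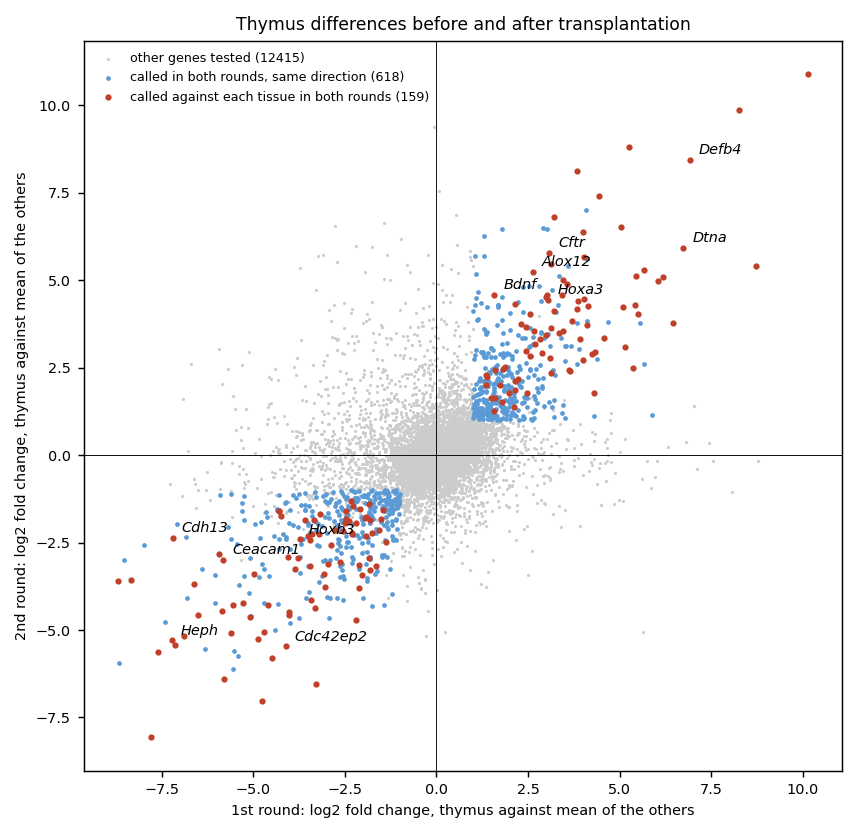
Log2 fold change of thymus cells against the mean of bladder, trachea and vagina in the 1st round (horizontal axis) and the 2nd round (vertical axis), 1 point per gene tested. Red points are the 159 genes called against each tissue in both rounds, blue points the other 618 genes called in both rounds in the same direction, and grey points the remaining 12415. Defb4 lies at the upper right and Heph at the lower left.

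The higher genes with a usable symbol numbered 20 of the 80, and 12 of them also had no overlap of samples and reached 5 CPM on average in thymus. Their values in each sample are shown in the plot of genes higher in thymus. Among regulators, Hoxa3 (ENSRNOG00000006281), a homeodomain factor of the pharyngeal pouches, was measured at 9.34 and 9.5 CPM in the 1st-round and 10.4 and 10.3 CPM in the 2nd-round thymus samples, against a range of 0.0366 to 1.84 CPM (median 1.2) in the 12 others. The 4 thymus samples lay close together and well above all others (log2 fold change 3.60 ± 0.48 SE, adjusted p = 1.79e-04). Atoh8, a basic helix-loop-helix factor, was measured at 6.67 and 6.71 CPM in the 1st-round and 6.86 and 6.85 CPM in the 2nd-round thymus samples and lay between 0.0751 and 2.54 CPM (median 0.338) elsewhere. It too kept the same level in thymus cells before and after transplantation (log2 fold change 4.00 ± 0.44 SE, adjusted p = 4.06e-05), and the vagina samples of the 1st round were the nearest group, at 2.12 ± 0.591 CPM (SD, n = 2).

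**Figure D2:**
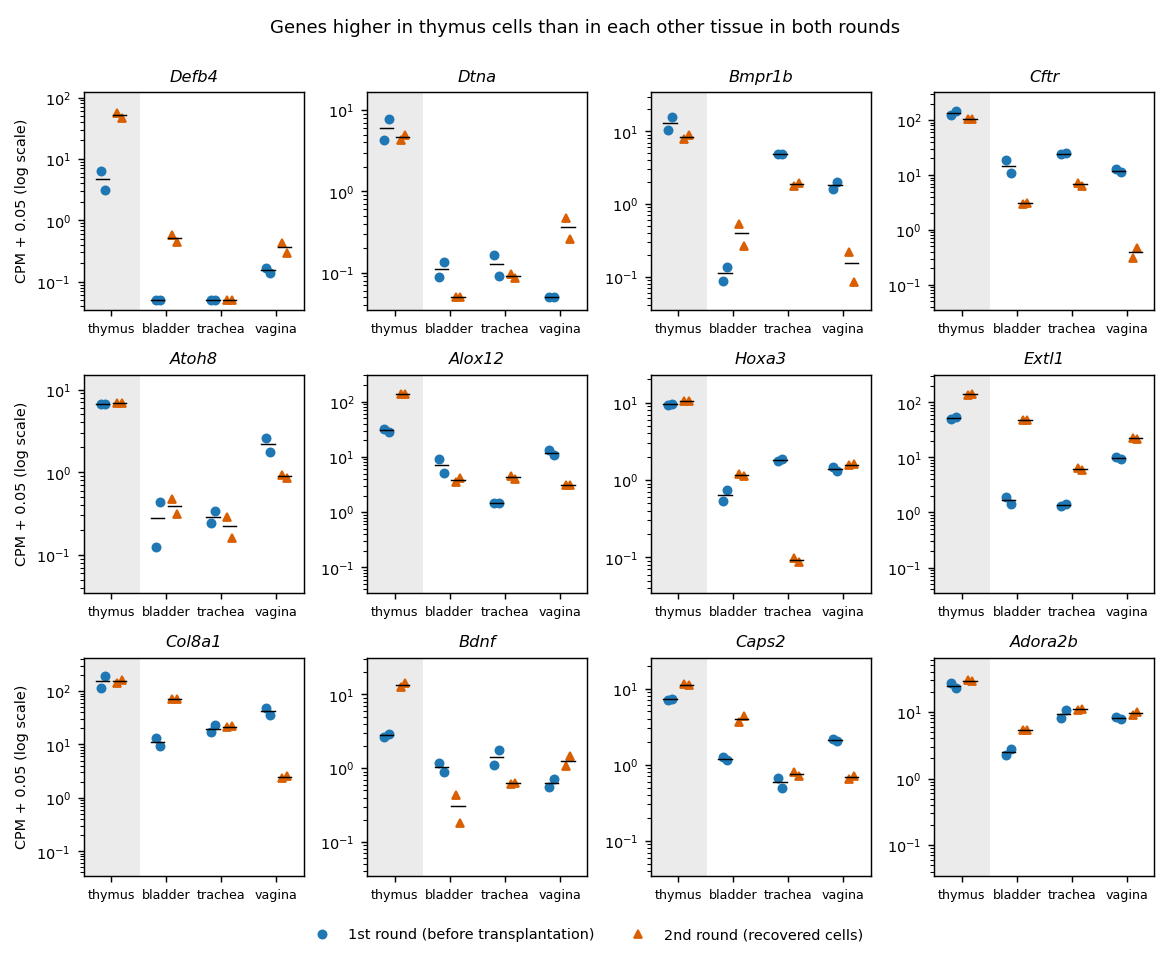
CPM + 0.05 on a log axis for the 12 named genes higher in thymus cells, by tissue, with 1st-round samples as blue circles, 2nd-round samples as orange triangles and the mean of each group as a line. All 4 thymus samples (grey band) lie above the 12 others in each panel, and the thymus level is higher in the 2nd round for Defb4, Alox12, Bdnf and Extl1.

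The start regions of 3 of the named genes are printed to show the sequences next to these values: both regulators with a steady level in thymus and, from the lower genes described further on, the adhesion molecule Ceacam1. Each is the 250 bases before the annotated start, read 5′ to 3′ on the strand of the gene from RefSeq (build GRCr8, not the build of the counts), with capitals on the motifs found. The motifs searched on both strands were the GC box GGGCGG, the CCAAT box CCAAT, the TATA box TATAAA and the E-box CACGTG.
Hoxa3 (chr4:82643832-82644081, minus strand): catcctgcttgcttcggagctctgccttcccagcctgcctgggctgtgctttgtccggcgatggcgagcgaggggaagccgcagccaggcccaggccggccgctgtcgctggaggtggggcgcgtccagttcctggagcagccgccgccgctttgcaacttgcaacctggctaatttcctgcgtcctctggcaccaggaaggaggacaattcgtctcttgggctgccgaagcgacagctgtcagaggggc
Atoh8 (chr4:105850380-105850629, minus strand): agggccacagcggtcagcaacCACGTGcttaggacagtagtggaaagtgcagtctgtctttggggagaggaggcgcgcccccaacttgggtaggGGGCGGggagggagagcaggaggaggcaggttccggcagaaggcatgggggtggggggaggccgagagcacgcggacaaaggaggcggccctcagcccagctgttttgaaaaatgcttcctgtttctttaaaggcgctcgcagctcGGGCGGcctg
Ceacam1 (chr1:90187793-90188042, minus strand): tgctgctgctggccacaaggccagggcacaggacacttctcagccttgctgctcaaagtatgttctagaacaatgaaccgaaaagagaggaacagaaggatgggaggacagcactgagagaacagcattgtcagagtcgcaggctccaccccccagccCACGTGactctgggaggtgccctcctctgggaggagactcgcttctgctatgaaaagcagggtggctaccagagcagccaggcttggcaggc
The window of Hoxa3 held none of the 4 motifs. That of Atoh8 held 2 GC boxes and 1 E-box, and that of Ceacam1 held 1 E-box. Over all 33469 windows, 30.5% held GGGCGG, 34% CCAAT, 12.9% TATAAA and 5.59% CACGTG. Of the 24 genes that the naming rule chose, 16 were matched by symbol, of which 10 held GGGCGG, 3 CCAAT, 2 TATAAA and 2 CACGTG. A gene was counted if any of its windows held the motif, so these counts are not directly comparable with the shares of single windows.

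Several of the other higher genes code for secreted or membrane proteins. Defb4 (ENSRNOG00000013939), a beta-defensin with antimicrobial activity, was measured at 6.27 and 3.04 CPM in the 1st-round and 56.2 and 46.9 CPM in the 2nd-round thymus samples, against a range of 0 to 0.527 CPM (median 0.0448) in the others (log2 fold change 7.99 ± 0.61 SE, adjusted p = 1.83e-06). Trachea had 0 reads of it in both rounds and 1st-round bladder as well, so that thymus was at least 38.8-fold higher than trachea in the 1st and at least 409-fold higher in the 2nd round, against a floor of 3 reads per library. A second beta-defensin, Defb14, was called in all 6 contrasts (log2 fold change 5.22 ± 0.72 SE, adjusted p = 2.59e-04), but its 12 other samples reached 5.36 CPM and overlapped the 1st-round thymus samples at 4.55 and 2.32 CPM. Cftr, the apical chloride and bicarbonate channel, was measured at 125 and 149 CPM in the 1st-round and 107 and 104 CPM in the 2nd-round thymus samples. The 12 others lay between 0.253 and 24.7 CPM, with a median of 8.94. Its thymus level was high in both rounds (log2 fold change 4.07 ± 0.51 SE, adjusted p = 1.17e-04), and the level nearest to it was that of 1st-round trachea, at 24.2 ± 0.646 CPM (SD, n = 2). Extl1, a glycosyltransferase related to the enzymes of heparan sulfate synthesis, was measured at 50.4 and 54 CPM in the 1st-round and 135 and 144 CPM in the 2nd-round thymus samples. Outside thymus the range was 1.25 to 48.3 CPM, with a median of 7.74. The highest of the others, recovered bladder at 48 ± 0.467 CPM (SD, n = 2), came close to the 1st-round thymus samples but stayed far under thymus of its own round (log2 fold change 3.40 ± 0.52 SE, adjusted p = 5.52e-04). Col8a1, a short-chain collagen of basement membranes, was measured at 113 and 192 CPM in the 1st-round and 143 and 163 CPM in the 2nd-round thymus samples. In the other tissues it ranged from 2.28 to 71.1 CPM, with a median of 21.5 (log2 fold change 3.10 ± 0.67 SE, adjusted p = 0.00589).

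Several signalling genes were higher in every thymus sample as well. Bmpr1b, a type I receptor for bone morphogenetic proteins, was measured at 10.3 and 15.9 CPM in the 1st-round and 7.79 and 8.83 CPM in the 2nd-round thymus samples. The other samples held 0.0351 to 4.84 CPM, with a median of 1.03 (log2 fold change 4.09 ± 0.71 SE, adjusted p = 0.00146). Bladder and recovered vagina were near 0 while trachea of the 1st round was at 4.83 ± 0.0125 CPM (SD, n = 2). Bdnf, a neurotrophin, was measured at 2.64 and 2.87 CPM in the 1st-round and 12.7 and 14.3 CPM in the 2nd-round thymus samples. Bladder, trachea and vagina samples spanned 0.13 to 1.72 CPM, with a median of 0.748. Thymus cells were above all others in both rounds but by unequal amounts (log2 fold change 1.57 ± 0.23 in the 1st and 4.59 ± 0.21 in the 2nd round). Adora2b, an adenosine receptor coupled to cyclic AMP, was measured at 27.2 and 22.5 CPM in the 1st-round and 29.6 and 29.5 CPM in the 2nd-round thymus samples. The remaining samples ran from 2.22 to 11.1 CPM, with a median of 8.1, the smallest difference of the 12 genes (log2 fold change 1.97 ± 0.27 SE, adjusted p = 2.11e-04). Alox12, the arachidonate 12-lipoxygenase, was measured at 31.9 and 28.5 CPM in the 1st-round and 139 and 138 CPM in the 2nd-round thymus samples. Elsewhere it lay between 1.39 and 13.2 CPM with a median of 4.04 (log2 fold change 3.99 ± 0.46 SE, adjusted p = 5.32e-05). Its thymus level was several times higher after transplantation. Dtna, alpha-dystrobrevin of the dystrophin-associated complex, was measured at 4.19 and 7.64 CPM in the 1st-round and 4.23 and 4.94 CPM in the 2nd-round thymus samples, and its 12 other samples held 25 reads in all, none above 0.422 CPM. Thymus was at least 47.4-fold higher than 1st-round vagina and at least 33.5-fold higher than recovered bladder, both with 0 reads. Caps2, a calcium-binding protein, was measured at 7.03 and 7.26 CPM in the 1st-round and 11.6 and 10.9 CPM in the 2nd-round thymus samples. The 12 others lay between 0.45 and 4.34 CPM, with a median of 0.921 (log2 fold change 3.00 ± 0.36 SE, adjusted p = 7.04e-05).

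The other higher genes with a usable symbol were called in all 6 contrasts but stayed under 5 CPM on average in thymus or overlapped with other samples. They were Diras2, Abat, Eaf2, Acacb, Cttnbp2, Apba1 and Fxyd6, with log2 fold changes between 1.75 for Fxyd6, a regulator of the sodium pump, and 5.72 for Diras2, a small GTPase. Abat breaks down the transmitter GABA and Acacb makes malonyl-CoA at mitochondria, and they were at 3.74 ± 0.49 and 3.39 ± 0.31 (SE) on the log2 scale. Treating the samples of 1 tissue as correlated, with a consensus correlation of 0.48, left 89 genes higher and 20 lower instead of 567 and 260. With it Defb4, Dtna, Atoh8, Alox12, Caps2 and Adora2b kept their call among the 12 named higher genes, while the adjusted p was 0.0521 for Cftr, 0.0849 for Extl1, 0.101 for Hoxa3, 0.107 for Bmpr1b, 0.188 for Bdnf and 0.379 for Col8a1. Of the other higher genes, Diras2 (0.012), Acacb (0.0126) and Apba1 (0.0301) kept their call. Cttnbp2 (0.0527), Abat (0.105), Eaf2 (0.128) and Fxyd6 (0.145) did not.

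The lower genes with a usable symbol numbered 27 of the 79, and 21 of them had no overlap of samples and reached 5 CPM on average in the other tissues. Hoxb3, a Hox gene of the same paralogue group as Hoxa3, went the other way from Hoxa3, at 0.399 and 0.549 CPM in the 1st-round and 0.55 and 0.626 CPM in the 2nd-round thymus samples. Outside thymus the range was 1.17 to 11.9 CPM, with a median of 5.03 (log2 fold change -3.13 ± 0.99 SE, adjusted p = 0.0422). Bladder held most of it, at 11.2 ± 0.407 and 11.6 ± 0.385 CPM in the 1st and 2nd round (SD, n = 2 each), and recovered trachea least, at 1.32 ± 0.209 CPM. The call of Hoxb3 with round as a covariate was lost without any 1 of the 4 thymus, 1st-round bladder, 1st-round trachea or 2nd-round vagina samples (adjusted p up to 0.123). Hoxb4 was called with round as a covariate and in 5 of the 6 contrasts (log2 fold change -2.79 ± 0.88 SE, adjusted p = 0.0411), recovered vagina being the exception, and its call was lost in 10 of 16 fits without 1 sample, each time without a sample of thymus, trachea or 1st-round bladder (adjusted p up to 0.117).

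**Figure D3:**
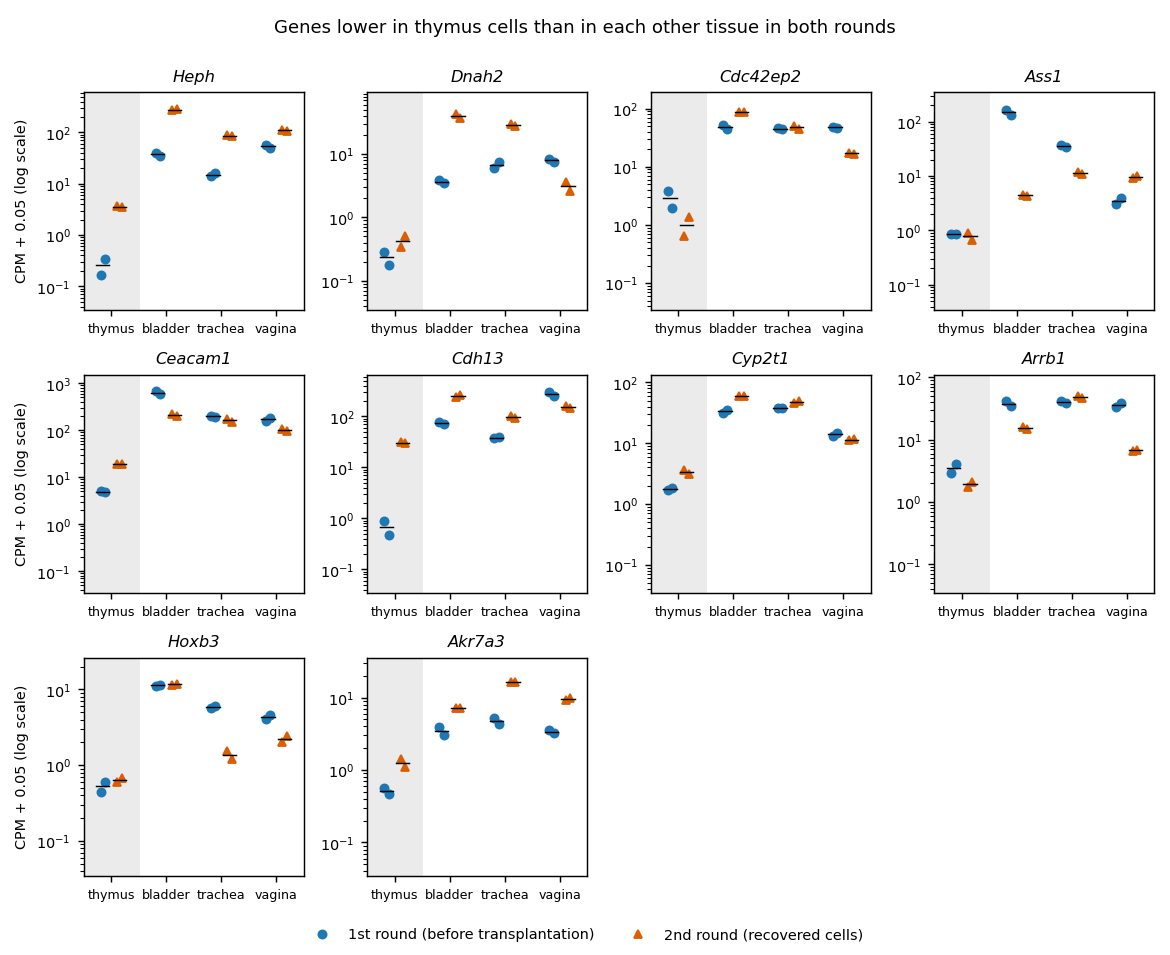
CPM + 0.05 on a log axis for the 10 named genes lower in thymus cells, by tissue, with 1st-round samples as blue circles, 2nd-round samples as orange triangles and the mean of each group as a line. All 4 thymus samples (grey band) lie below the 12 others in each panel, and the thymus level of Cdh13, Heph and Ceacam1 is higher in the 2nd round.

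Adhesion and membrane genes were among the lower genes. Ceacam1, an immunoglobulin-family adhesion molecule of epithelia, was measured at 5.11 and 4.73 CPM in the 1st-round and 19.3 and 18.9 CPM in the 2nd-round thymus samples. In the other tissues it ranged from 98.6 to 691 CPM, with a median of 192 (log2 fold change -4.42 ± 0.59 SE, adjusted p = 1.92e-04). The recovered thymus samples were higher than the 1st-round ones but still under every other sample. Cdh13, a cadherin without a cytoplasmic tail, was measured at 0.839 and 0.422 CPM in the 1st-round and 30.8 and 29.7 CPM in the 2nd-round thymus samples. The other samples held 37 to 298 CPM, with a median of 125. Its recovered thymus samples came near the lowest 1st-round trachea sample, and the call with round as a covariate (log2 fold change -3.68 ± 0.98 SE, adjusted p = 0.0192) was lost without either 2nd-round thymus sample (adjusted p up to 0.0532). Heph, the ferroxidase hephaestin that takes part in iron export, was measured at 0.12 and 0.296 CPM in the 1st-round and 3.56 and 3.49 CPM in the 2nd-round thymus samples. Bladder, trachea and vagina samples spanned 14.1 to 282 CPM, with a median of 71.4 (log2 fold change -5.69 ± 1.07 SE, adjusted p = 0.00237). Arrb1, beta-arrestin 1, was measured at 2.88 and 4.09 CPM in the 1st-round and 1.69 and 2.04 CPM in the 2nd-round thymus samples. The remaining samples ran from 6.67 to 50.3 CPM, with a median of 36.7 (log2 fold change -3.35 ± 0.75 SE, adjusted p = 0.00716). Recovered vagina was the nearest group, at 6.69 ± 0.0284 CPM (SD, n = 2). Cdc42ep2, an effector of the GTPase Cdc42, was measured at 3.71 and 1.9 CPM in the 1st-round and 0.593 and 1.32 CPM in the 2nd-round thymus samples. Elsewhere it lay between 16.8 and 88.2 CPM with a median of 46.3 (log2 fold change -4.71 ± 0.90 SE, adjusted p = 0.00269).

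Among the other named lower genes, Cyp2t1, a cytochrome P450, was measured at 1.68 and 1.82 CPM in the 1st-round and 3.64 and 3.06 CPM in the 2nd-round thymus samples. The 12 others lay between 11.2 and 60.7 CPM, with a median of 35.9 (log2 fold change -3.51 ± 0.91 SE, adjusted p = 0.017). Its call was lost without any 1 thymus sample (adjusted p up to 0.0603). Akr7a3, an aldo-keto reductase that acts on reactive aldehydes, was measured at 0.519 and 0.422 CPM in the 1st-round and 1.35 and 1.05 CPM in the 2nd-round thymus samples. Outside thymus the range was 2.99 to 16.1 CPM, with a median of 6.13 (log2 fold change -3.06 ± 0.45 SE, adjusted p = 3.81e-04). The thymus samples were low in both rounds, and the other tissues were each higher in the 2nd round than in the 1st. Both Ass1 and Dnah2 were low in every thymus sample, and called in all 6 contrasts, but not with round as a covariate, where the spread among the other tissues counts as error. Ass1, argininosuccinate synthase of the urea cycle, was measured at 0.799 and 0.802 CPM in the 1st-round and 0.847 and 0.626 CPM in the 2nd-round thymus samples. In the other tissues it ranged from 3.00 to 159.6 CPM, with a median of 10.4 (adjusted p = 0.208), with the 1st-round bladder samples far above the rest. Dnah2, an axonemal dynein heavy chain of motile cilia, was measured at 0.24 and 0.127 CPM in the 1st-round and 0.296 and 0.461 CPM in the 2nd-round thymus samples. The other samples held 2.56 to 43.5 CPM, with a median of 7.46 (adjusted p = 0.12). With 8 group means in place of the covariate the adjusted p was 1.12e-09 for Ass1 and 1.36e-08 for Dnah2.

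The other lower genes with a usable symbol included further regulators and metabolic enzymes. Ehf, an ETS factor of epithelial differentiation, was measured at 36.8 and 50.7 CPM in the 1st-round and 76.6 and 74.7 CPM in the 2nd-round thymus samples. Bladder, trachea and vagina samples spanned 128 to 381 CPM, with a median of 234 (log2 fold change -2.03 ± 0.31 SE, adjusted p = 5.5e-04). Thymus cells kept a sizeable level of it, below every other sample. Fabp5, the fatty acid-binding protein of keratinocytes, was measured at 77.4 and 54.4 CPM in the 1st-round and 118 and 110.3 CPM in the 2nd-round thymus samples. The remaining samples ran from 193 to 1596 CPM, with a median of 323 (log2 fold change -2.11 ± 0.37 SE, adjusted p = 0.00144). The bHLH-PAS factors Arntl2, of the circadian clock, and Arnt2 were lower, at -2.08 ± 0.34 and -1.90 ± 0.54 (SE, log2 scale), as were the nucleotide and creatine kinases Ak1 at -1.79 ± 0.26 and Ckb at -2.27 ± 0.74. Akr1c12, another aldo-keto reductase, had 0 reads in all 4 thymus samples and 207 reads over the 12 others, none of which exceeded 1.47 CPM. A further 8 were Cachd1, Hgfac, Rnf186, Ccdc88b, Afmid, Dpp7, Reep6 and Apc2, with log2 differences from -5.38 for Cachd1 to -2.37 for Apc2. Of these Cachd1, Hgfac and Ccdc88b were not called with round as a covariate (adjusted p = 0.129, 0.0783 and 0.0975). With the samples of 1 tissue taken as correlated, Akr7a3 (adjusted p = 0.0233) and Ceacam1 (0.0422) kept their call among the named lower genes, and the adjusted p of the 6 that lost it ran from 0.096 for Heph to 0.631 for Cdh13. None of the further lower genes given in this paragraph was called in that fit. Their adjusted p was 0.0559 for Ehf, 0.106 for Fabp5 and up to 0.734 for Cachd1.

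Of the list of 19 pharyngeal and thymic organ regulators, 6 were paired with an identifier and tested, and 3 were higher and 0 lower with round as a covariate, with a median log2 difference of 2.95 against -0.00234 over all genes tested. Over all genes 4.3% were higher and 1.97% lower, and 6.27% were called in either direction. Among genes with a symbol, which come from lists of genes already found to differ from whisker cells, 12.9% were called, so that counts on every list here start from this higher share. Hoxa3, described above, and Eya1, a coactivator of homeodomain factors, were among them. Eya1 was measured at 34.9 and 47.2 CPM in the 1st-round and 7.41 and 6.92 CPM in the 2nd-round thymus samples, against a range of 0.0351 to 7.17 CPM (median 0.635) in the others (log2 fold change 4.94 ± 0.71 SE, adjusted p = 3.61e-04). Its level in thymus was far lower after transplantation, and 1 recovered thymus sample lay under the highest bladder sample. Eya1 kept its call with the samples of 1 tissue taken as correlated (adjusted p = 0.00689) and Hoxa3 did not (0.101). However, Hoxa3 was called in all 6 contrasts and Eya1 in 5 of the 6. Against recovered bladder the log2 difference of Eya1 was 0.72, under the 2-fold threshold.

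**Figure D4:**
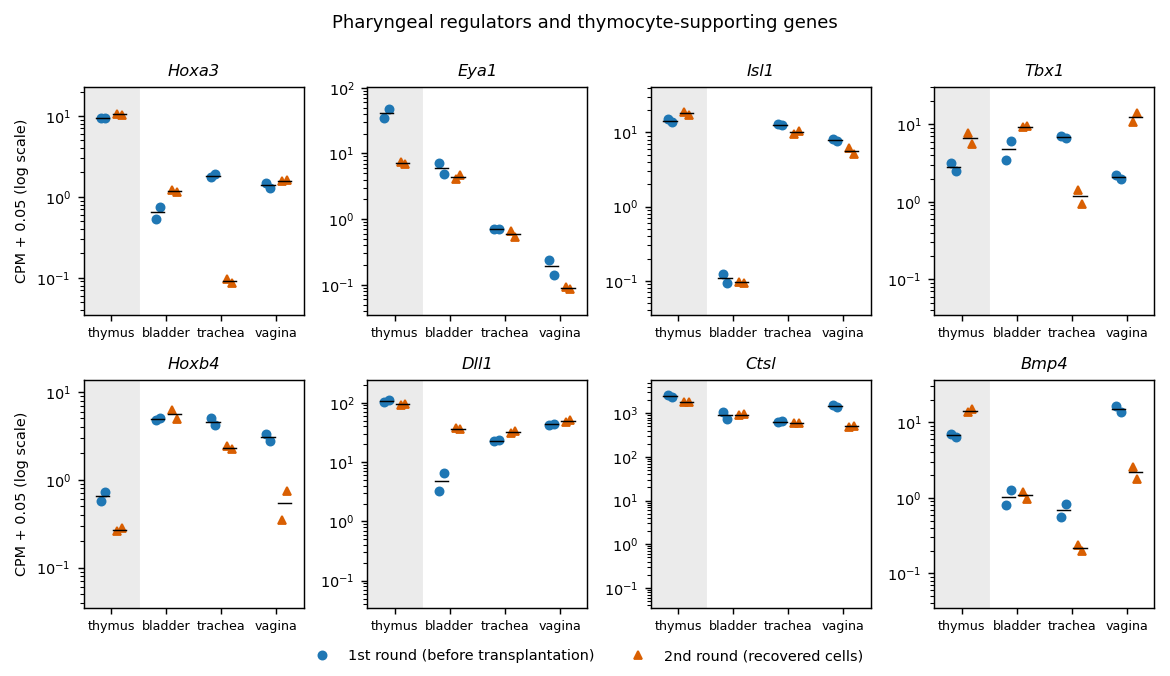
CPM + 0.05 on a log axis for 8 regulators and thymocyte-supporting genes, by tissue, with 1st-round samples as blue circles, 2nd-round samples as orange triangles and group means as lines. Hoxa3, Dll1 and Ctsl are highest in thymus (grey band), Isl1 is near 0 in bladder alone, and the thymus level of Eya1 is lower in the 2nd round.

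Isl1, a LIM-homeodomain factor of pharyngeal endoderm, was measured at 15.1 and 13.7 CPM in the 1st-round and 18.7 and 17.2 CPM in the 2nd-round thymus samples, against a range of 0.0434 to 12.9 CPM (median 6.89) in the others. All 4 thymus samples lay above the 12 others, yet the adjusted p with round as a covariate was 0.053 (log2 fold change 3.11 ± 1.04, SE). The order of the groups was thymus, trachea, vagina and bladder in both rounds, and bladder, at 0.0592 and 0.0456 CPM, was below the floor. In the 1st round thymus and trachea differed by 0.19 ± 0.11 on the log2 scale (adjusted p = 0.142). Tbx1, a T-box factor of the pharyngeal pouches, was measured at 3.11 and 2.49 CPM in the 1st-round and 7.79 and 5.5 CPM in the 2nd-round thymus samples. Elsewhere it lay between 0.88 and 13.9 CPM with a median of 6.37 (log2 fold change -0.01 ± 0.67 SE, adjusted p = 0.994). Aire, which drives the expression of tissue antigens in medullary thymic epithelium, was at most 0.38 CPM in thymus cells and reached 3.46 CPM in the others (log2 fold change -2.10 ± 0.95 SE, adjusted p = 0.145). Neither of these was called.

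Of 25 thymocyte-supporting genes, 8 were tested, and 2 were higher and 0 lower with round as a covariate (4.3% and 1.97% over all genes, median log2 difference 0.45). Neither call was kept with the samples of 1 tissue taken as correlated (adjusted p = 0.218 for Ctsl and 0.393 for Bmp4). Ctsl, the lysosomal protease cathepsin L that cortical thymic epithelium uses to prepare peptides, was measured at 2663 and 2314 CPM in the 1st-round and 1789 and 1811 CPM in the 2nd-round thymus samples. The 12 others lay between 496 and 1519.8 CPM, with a median of 695. It lay above all others in every thymus sample (log2 fold change 1.43 ± 0.26 SE, adjusted p = 0.00178) and passed the fold threshold in 4 of the 6 contrasts. Bmp4, a ligand that acts on early thymus epithelium, was measured at 7.03 and 6.33 CPM in the 1st-round and 13.5 and 15.1 CPM in the 2nd-round thymus samples. Outside thymus the range was 0.147 to 16.7 CPM, with a median of 1.03 (log2 fold change 2.71 ± 0.69 SE, adjusted p = 0.015). The 1st-round vagina samples, at 15.1 ± 2.24 CPM (SD, n = 2), were above the thymus samples of that round, and the call was lost without either 2nd-round thymus sample (adjusted p up to 0.0617) and with edgeR (adjusted p = 0.109). The others were not called. Ctss, cathepsin S, was at 0.839 and 0.338 CPM in 1st-round and 2.29 and 1.98 CPM in 2nd-round thymus samples, against a range of 0.0366 to 1.56 CPM (median 0.192). Cxcl12, a chemokine for progenitors, had 0 reads in 3 of the 4 thymus samples and a level between 0.0434 and 4.77 CPM (median 0.208) elsewhere. Cd83, a surface protein of antigen-presenting cells, was at most 0.200 CPM in thymus samples and was lower in each round taken alone (log2 fold change -2.55 ± 0.47 in the 1st and -4.15 ± 0.69 in the 2nd round), and Cd80, Cldn3 and Cldn4 had log2 differences between -0.25 and 0.85.

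The signalling lists gave few calls with round as a covariate, beside 4.3% higher and 1.97% lower over all genes. None of those calls was kept with the samples of 1 tissue taken as correlated, where the adjusted p was 0.361 for Dll1, 0.107 for Bmpr1b, 0.393 for Bmp4, 0.164 for Gdf15, 0.187 for Cxcl6 and 0.426 for Cxcl16. For Notch it was 1 of 2 higher and 0 lower, namely Dll1, a Notch ligand, at 101 and 111 CPM in the 1st-round and 91.7 and 95.4 CPM in the 2nd-round thymus samples. In the other tissues it ranged from 3.15 to 50.7 CPM, with a median of 34.6 (log2 fold change 1.96 ± 0.48 SE, adjusted p = 0.0119). All thymus samples lay above all others, and the call was lost without the 2nd sample of 1st-round thymus (adjusted p = 0.0534). Dll1 was not called in all 6 contrasts. Recovered vagina was the nearest group, at 49.1 CPM against 93.5 CPM in recovered thymus (means, n = 2 each). For BMP and TGF-beta it was 2 of 12 higher and 1 lower: the higher genes were Bmpr1b and Bmp4, and the lower was Gdf15, a stress-induced cytokine, at 5.03 and 3.8 CPM in the 1st-round and 5.12 and 4.81 CPM in the 2nd-round thymus samples. The other samples held 8.06 to 48.1 CPM, with a median of 18.3 (log2 fold change -1.99 ± 0.44 SE, adjusted p = 0.00616). The Wnt and FGF lists had 3 genes tested each and none called in either direction. The median log2 difference was 1.15 for Notch, -0.04 for BMP and TGF-beta, -0.45 for Wnt, -0.74 for FGF and -1.02 for chemokines and cytokines, against -0.00234 over all genes. For chemokines and cytokines it was 0 of 17 higher and 2 lower. Cxcl6, a chemokine for neutrophils, was at 14.2 and 10.8 CPM in the 1st-round and 29.6 and 29.4 CPM in the 2nd-round thymus samples. Bladder, trachea and vagina samples spanned 30.5 to 3246 CPM, with a median of 120.5 (log2 fold change -3.68 ± 0.99 SE, adjusted p = 0.0203), and its call was lost without either 1st-round thymus sample (adjusted p up to 0.102) and with edgeR (0.114). Cxcl16 was at 99.4 and 78.5 CPM in the 1st-round and 88.5 and 89.4 CPM in the 2nd-round thymus samples. The remaining samples ran from 106 to 317 CPM, with a median of 196 (log2 fold change -1.02 ± 0.26 SE, adjusted p = 0.0143). Its fold change is near the threshold of 2, and it dropped out in 5 of 16 fits without 1 sample, those without either 1st-round bladder sample, either 2nd-round vagina sample or the 2nd sample of 1st-round thymus (adjusted p up to 0.0627).

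Single genes of other lists were called. Egr1, an immediate early factor, was at 1235 and 1287 CPM in the 1st-round and 1038 and 1030.2 CPM in the 2nd-round thymus samples. Elsewhere it lay between 75.6 and 685 CPM with a median of 431 (log2 fold change 1.66 ± 0.46 SE, adjusted p = 0.0231), with 1 of 4 higher and 0 lower on its list, and its call was lost without either 1st-round thymus sample (adjusted p up to 0.0926). Aurkb, a mitotic kinase, was at 536 and 550.0 CPM in the 1st-round and 158 and 157 CPM in the 2nd-round thymus samples. The 12 others lay between 42.7 and 192 CPM, with a median of 98.6 (log2 fold change 1.63 ± 0.50 SE, adjusted p = 0.0354), with 1 of 7 higher and 0 lower among cell cycle genes, and its call was lost without either sample of 1st-round thymus or of 1st-round trachea (adjusted p up to 0.154). The high values were those of the 1st-round thymus samples, and the recovered ones lay within the range of the others. Isg15, an interferon-induced modifier, was at 14.1 and 10.1 CPM in the 1st-round and 3.09 and 2.87 CPM in the 2nd-round thymus samples. Outside thymus the range was 1.72 to 6.21 CPM, with a median of 2.72 (log2 fold change 1.15 ± 0.26 SE, adjusted p = 0.00683), with 1 of 5 higher and 0 lower on its list, and the call was lost without the 1st sample of 1st-round thymus (adjusted p = 0.0551). None of the keratin (5 tested), cornified envelope and desmosome (10), urothelial (3) and vaginal (3) genes was called in either direction with round as a covariate, and of 2 airway genes Cftr was higher, a call not kept with the samples of 1 tissue taken as correlated (0.0521). The median log2 difference was -1.77 for keratins, -0.07 for cornified envelope and desmosome, 0.79 for urothelial, 1.06 for airway and 0.01 for vaginal genes. It was 0.13 for immediate early and stress, 0.33 for cell cycle and 0.11 for antigen presentation and interferon genes. Within the 2nd round alone Aurkb (0.38 ± 0.12 SE on the log2 scale), Isg15 (0.34 ± 0.25) and Cxcl16 (-0.93 ± 0.07) were not called. With the samples of 1 tissue taken as correlated none of these calls was kept (adjusted p = 0.432 for Egr1, 0.48 for Aurkb and 0.22 for Isg15). Over all genes tested 4.3% were higher and 1.97% lower.

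Some list members were called in the same direction in each round taken alone but not with round as a covariate. Besides Isl1, Cd83 and both Y chromosome genes, they were Krt10, a keratin of differentiated epidermis, with log2 differences of -1.84 and -1.75 in the 1st and 2nd round, Cnfn of the cornified envelope (-4.30 and -1.15), the airway cytochrome Cyp2f4 (-2.58 and -1.54), the ligand Bmp2 (-1.86 and -2.37), the FGF-responsive factor Etv5 (-1.57 and -1.21) and Cd74, the invariant chain of class II molecules (-1.19 and -1.02), all lower in thymus cells. Ifit2, an interferon-induced gene, was higher (1.20 and 1.13). Over all genes 2.98% were higher and 2.91% lower in both rounds, and among genes with a symbol 6.23% and 6.27%.

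Markers of other cells that an EGFP sort could hold were looked at in the same samples. Of 18 fibroblast genes 6 were tested and none was called with round as a covariate (median log2 difference -0.74). Their summed level was 398 to 466 CPM in thymus and 319 to 624 CPM in the others in the 1st round, and 532 to 554 against 255 to 634 CPM in the 2nd. Col1a1 was at 14.1 ± 0.758 and 20.1 ± 1.61 CPM in thymus of the 1st and 2nd round, and at 152 ± 34.5 CPM in bladder and 155 ± 1.9 CPM in trachea of the 1st round (SD, n = 2 each). Thymus cells of the 1st round thus had less of it than bladder and trachea of that round, and its part in the lower genes was not tested. The sole haematopoietic gene tested, Coro1a, was at most 1.22 CPM in thymus samples. Of 2 endothelial genes Esam was lower (log2 fold change -3.57 ± 1.16 SE, adjusted p = 0.0468), at most 1.88 CPM in any sample, beside 1.97% lower over all genes. With the samples of 1 tissue taken as correlated its adjusted p was 0.341, and its call was lost in 13 of 16 fits without 1 sample, all but those without a 1st-round vagina sample or the 2nd sample of recovered vagina. Neural and melanocyte markers were not among the paired genes.

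The thymus difference itself changed between the rounds for 2268 genes (17.2%), by the contrast of the change in thymus with the mean change in the other 3 tissues. Among the 159 genes called against each tissue in both rounds, 58 (36.5%) were of this kind. The direction of these 159 was fixed by the rule that chose them, so the change called in the 58 was one of size. For the higher genes, the difference grew after transplantation for Bdnf (by 3.01 ± 0.32 SE, adjusted p = 6.07e-06), Cftr (2.70 ± 0.28 SE, adjusted p = 5.07e-06) and Alox12 (2.62 ± 0.21 SE, adjusted p = 4.41e-07), all on the log2 scale and against each of the 3 tissues. For Hoxa3 the mean difference changed too (1.38 ± 0.21 SE, adjusted p = 1.52e-04), but it went from 2.39 to 7.39 against trachea, where the recovered samples held 2 reads in all and lay below the floor, from 3.98 to 3.19 against bladder and from 2.79 to 2.74 against vagina. The difference of Extl1 shrank (-1.34 ± 0.12 SE, adjusted p = 1.47e-06), most against bladder (from 5.01 to 1.54) and not against vagina (from 2.44 to 2.66). In thymus cells Alox12 went from 30.2 ± 2.44 to 139 ± 0.607 CPM (SD, n = 2 each). Cftr, by contrast, did not gain in thymus cells, and all 3 other tissues had less of it in the 2nd round. For the lower genes, the mean thymus deficit became smaller for Cdh13 (4.84 ± 0.36 SE, adjusted p = 2.2e-07), Ceacam1 (2.82 ± 0.20 SE, adjusted p = 1.73e-07), Heph, Hoxb3 and Ass1 (the last not against vagina, from -2.06 to -3.70), and larger for Cdc42ep2 (-1.34 ± 0.41 SE, adjusted p = 0.0164). Cdh13 had risen in thymus from 0.63 ± 0.294 to 30.2 ± 0.806 CPM (SD, n = 2 each).

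**Figure D5:**
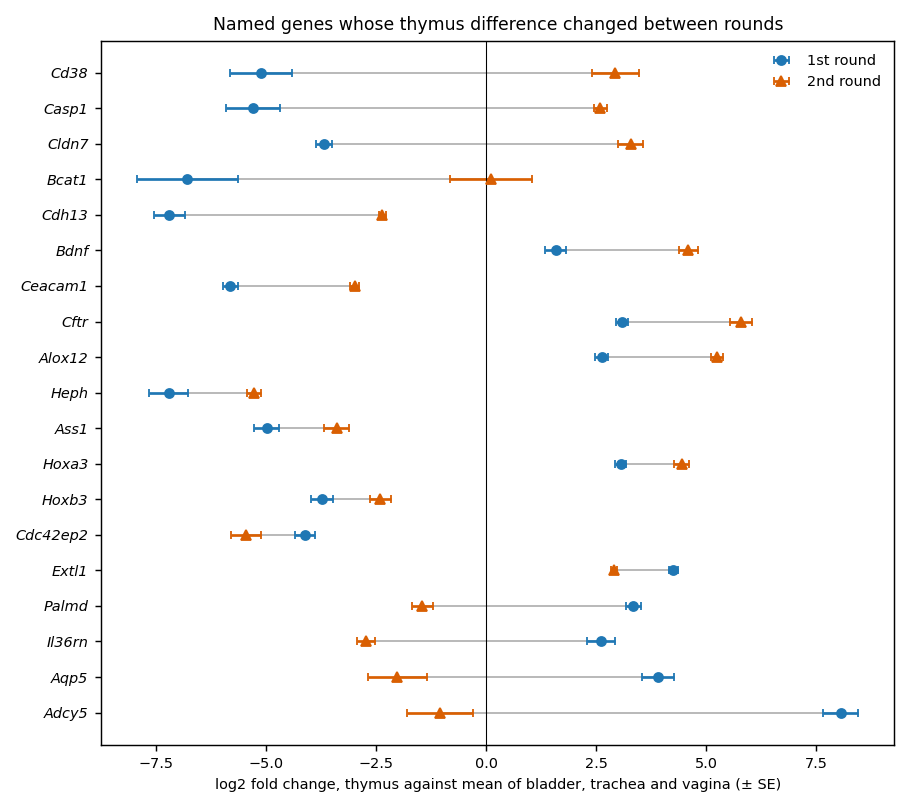
Log2 fold change of thymus against the mean of bladder, trachea and vagina (± SE) in the 1st round (blue circles) and the 2nd round (orange triangles) for the named genes whose difference changed between rounds, with a grey line joining the rounds. The markers of both rounds lie on 1 side of 0 by the rule that chose them. The other genes were chosen for the largest changes between rounds. Of these, Cd38, Casp1, Cldn7, Palmd, Il36rn and Aqp5 change side, and Adcy5 and Bcat1 are not called in the 2nd round.

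Among genes with a symbol, the largest changes between rounds were in genes that are not markers of both rounds. Adcy5, an adenylate cyclase, was at 14.2 and 13.8 CPM in 1st-round thymus and at 0 and 0.132 CPM after transplantation, and every other sample was under 0.335 CPM or at it (change -9.10 ± 0.85 SE, adjusted p = 2.06e-06). The 1st-round samples were thus the sole ones with an appreciable level. Aqp5, a water channel of secretory epithelia, was at 7.07 and 5.78 CPM in 1st-round and 0.0847 and 0.0659 CPM in 2nd-round thymus, and 1st-round trachea held 21.1 ± 1.98 CPM (SD, n = 2). Palmd, a relative of paralemmin, went from 7.88 ± 0.938 to 1.07 ± 0.0203 CPM in thymus while vagina went from 1.98 ± 0.242 to 11.9 ± 0.605 CPM. Il36rn, the antagonist of the interleukin-36 receptor, stayed at 1.5 and 1.45 CPM in thymus while the other tissues had more of it in the 2nd round. In the other direction, Casp1, the inflammasome caspase, went from 0.16 and 0 CPM in 1st-round to 26 and 26.4 CPM in 2nd-round thymus, where bladder was at 24.4 ± 0.634 CPM (SD, n = 2). Cd38, an NAD-consuming surface enzyme, went from 0.165 ± 0.0645 to 1.8 ± 0.337 CPM in thymus while trachea went from 75.3 ± 1.94 to 4.01 ± 0.225 CPM. For Cldn7, a tight junction claudin, and Bcat1, a branched-chain aminotransferase, thymus stayed low, at 3.77 and 0.113 CPM in the 2nd round. Bladder and trachea had less of both genes in the 2nd round than in the 1st, Cldn7 going from 64.2 ± 5.08 to 5.31 ± 0.337 CPM in bladder.

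Of 5 keratins tested, 3 changed their thymus difference between rounds, all upward, beside 17.2% of all genes and 35.6% of genes with a symbol. Krt4, a keratin of mucosal squamous epithelia, was at 53.5 and 34.2 CPM in 1st-round and 965 and 908 CPM in 2nd-round thymus (change 5.45 ± 0.46 SE, adjusted p = 8.32e-07). Recovered thymus was above all other samples of either round, whereas 1st-round thymus was near bladder at 43.2 ± 38 CPM and far under vagina at 658 ± 41.7 CPM (SD, n = 2 each). Krt19, a keratin of simple epithelia, was at 18.1 ± 4.54 and 35 ± 2.69 CPM in thymus of the 1st and 2nd round, while bladder was at 928 ± 93.2 and 444 ± 38.6 CPM (SD, n = 2 each). Krt18, a partner of Krt8 in simple epithelia, also changed (4.35 ± 0.28 SE, adjusted p = 7.1e-08). Of the chemokines and cytokines, 13 of 17 changed their thymus difference, 9 upward and 4 downward, and of the fibroblast genes 5 of 6 upward, beside the same shares. Recovered bladder and trachea had 16.7 and 26 CPM of Col1a1, far less than their 1st-round samples, and the part of fibroblast RNA in these changes was not tested.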

How the data were processed

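RNA of sorted EGFP-positive cells was made into stranded TruSeq libraries. The authors trimmed reads (cutadapt 1.8), aligned them with STAR 2.5.2b to the rat genome Rnor_6.0 and counted them with HTSeq 0.6.1. They deposited raw counts per Ensembl gene and sample. The strand setting of the counting is not given in the sources used here. Reads with several alignments (11601894 to 19374286 alignments per sample) were left uncounted, which can lower genes with near-identical copies. Whether this affected the defensins was not tested. Rows that name no gene were left out of library sizes. Reads assigned to no feature were 13.2% to 18.9% of uniquely placed reads per sample.

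From these, genes reaching 1 CPM in 1 or more of the 16 samples were kept. They were scaled by TMM (edgeR 4.0.16) and tested by voom of limma 3.58.1 (R 4.3.3), with Benjamini-Hochberg adjustment within each contrast. The models were thymus against other tissues plus round (13 residual degrees of freedom) and a mean for each of 8 groups (8). The code was tested on simulated counts. DESeq2 1.42.0, edgeR's quasi-likelihood test and other filters, scalings, thresholds, blocks, weights and left-out samples or tissues were alternatives. Symbols came from identifier and symbol columns of the study's supplementary lists of genes that differ from whisker cells, whose values were not used, and 2311 of 32494 identifiers matched. The genes named were the 12 highest and 12 lowest log2 fold changes among genes called in all 6 contrasts, with no overlap of samples, at least 5 CPM on the higher side and a usable symbol, members of the regulator and thymocyte lists, called members of other lists, and the 4 largest rises and falls between rounds. Outside this rule, Defb14, the other genes called in all 6 contrasts, and genes of the lists that were not called (Krt4, Krt18, Krt19, Krt8, Krt10, Cnfn, Cyp2f4, Bmp2, Etv5, Cd74, Ifit2, Col1a1, Coro1a) were named after their values were seen. Some genes that meet the rule are not reported here. Groups, contrasts and lists were chosen with earlier results of these data known.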

Additional observations from a re-analysis of the deposited data

Results flagged for a closer look

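The thymus difference changed between the 1st and 2nd round for 2268 genes by a test of that change itself. The named genes among them are given here by the log2 change of their difference, 2nd minus 1st round. Of the markers higher in both rounds, the difference changed by 3.01 for Bdnf, 2.70 for Cftr, 2.62 for Alox12, 1.38 for Hoxa3 and -1.34 for Extl1. The value of Hoxa3 rests on recovered trachea, with 2 reads in all, since the difference went from 3.98 to 3.19 against bladder and from 2.79 to 2.74 against vagina. Of the markers lower in both rounds, it changed by 4.84 for Cdh13, 2.82 for Ceacam1, 1.94 for Heph, 1.59 for Ass1, 1.33 for Hoxb3 and -1.34 for Cdc42ep2. Among genes with a symbol, the largest rises were 8.06 for Cd38, 7.89 for Casp1, 6.97 for Cldn7 and 6.91 for Bcat1, and the largest falls -9.10 for Adcy5, -5.94 for Aqp5, -5.33 for Il36rn and -4.80 for Palmd. In the 1st round the other tissues also differed among themselves in Col1a1, 1 of 6 fibroblast genes tested. The summed level of the 6 genes in thymus lay within the range of the other tissues in both rounds. It was 398 to 466 against 319 to 624 CPM in the 1st round and 532 to 554 against 255 to 634 CPM in the 2nd. The part of fibroblast RNA in these changes was not tested. Groups of 2 samples were too small to look for single outlying samples, though the samples of 1st-round thymus and 1st-round bladder stood further apart than those of the other groups.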

How the results depend on the processing

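The counts with round as a covariate (567 higher, 260 lower) depended most on the model. They were 378 and 400 with edgeR, 453 and 708 with DESeq2, 861 and 662 with sample quality weights, 876 and 958 with 8 group means, and 89 and 20 with tissue as a random block. The lower count was 395 without a filter and 615 without vagina. A log2 fold threshold of 2 left 268 and 88, 131 and 147 in both rounds, 31 and 27 in all 6 contrasts, and 1047 genes whose difference changed. With 4 contrasts left, the counts of genes called against each tissue were 175 and 146 without bladder, 185 and 207 without vagina, and 110 and 139 without trachea, from fewer criteria. Of the 159 genes called in all 6 contrasts, 154 were called by edgeR and 146 by DESeq2 in the same direction, and 126 with sample weights. Leaving out 1 sample gave 392 to 592 higher and 165 to 299 lower genes (fewest without the 2nd sample of 1st-round thymus), 380 to 399 and 300 to 407 in both rounds, 71 to 81 and 68 to 88 in all 6 contrasts, and 2001 to 2605 changed between rounds.

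The deviations of samples with the same number had correlations of -0.11 to 0.15 over 28 pairs of groups, 6 over 0.1. No reference value for unpaired samples was computed, so whether the numbers pair the samples was not settled. With the replicate block the counts were 520 and 232 with round as a covariate, 393 and 389 in both rounds, 77 and 82 in all 6 contrasts, and 2271 changed between rounds. The block ended the calls of Hoxb3 (adjusted p = 0.0558), Hoxb4 (0.0534) and Esam (0.0606) with round as a covariate. Of 3821 values of listed and named genes under alternatives, 3597 kept direction and side of the threshold, 109 lost and 114 gained a call. Cxcl3, not called, went from -0.41 to a called 1.27 with sample weights. The cause was not tested. Genes under 3 reads per library could not be told from absent ones, and samples of 1 thymic source cannot show the spread between animals.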
